A study of Mus musculus with 36 samples.

Results

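Antibodies are built from 2 heavy and 2 light chains, and each chain joins a variable (V) segment, which binds antigen, to a constant region, which sets the class of the antibody. In mice the heavy chain locus lies on chromosome 12, the kappa light chain locus on chromosome 6 and the lambda light chain locus on chromosome 16. Resting B cells carry IgM and IgD on their surface, class switching replaces these constant regions with those of IgG, IgE or IgA, and plasma cells, many of which live in bone marrow, secrete antibody and hold far more immunoglobulin transcript per cell than B cells do. The genes described here are the constant-region genes and the V genes of the GENCODE annotation that passed a limit on gene length, 231 of the 56246 genes in the expression table: 13 constant-region genes and, among V genes, 113 heavy, 102 kappa and 3 lambda. The limit leaves out genes hardly longer than the fixed stretch that the deposited values take off the length of every gene. The 231 were taken by gene type and length, with no use of their values, and coordinates are in GRCm38.

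RNA was taken from tibial bone of 6-month-old C57BL/6J mice after the epiphyses and marrow had been removed, in 3 groups of 12 mice, each with 6 females and 6 males. Wild-type mice carried no transgene and were not injected. The other groups were homozygous for a human BAC transgene that carries LMNA with the G608G progeria mutation (LMNA G/G), so that both held 2 copies of it, and the transgene also holds RAB25. These mice received, by retro-orbital injection at postnatal day 14, either saline or a pair of AAV9 vectors that together encode an adenine base editor (ABE, ABEmax-VRQR) directed at the mutation. The ABE-treated mice therefore differ from the saline-treated mice by both the vector and the editor. In the labels the numbers of the wild-type mice form a separate run, and no batch is named.

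Where 3 values follow each other below, they stand for wild-type mice first, then for those given saline, then for those given ABE. The libraries held 48064068 to 116206662 reads on genes (median 78234452.5), of which 0.0326 to 0.356% lay on the 231 immunoglobulin genes. Values are TPM, a transcript abundance corrected for gene length, divided by a factor per library, called scaled TPM below, and 159 of the 231 genes had a mean of at least 0.5 scaled TPM and were tested. These were 11 constant-region genes and 76 heavy, 69 kappa and 3 lambda V genes, and of the 72 not tested 2 had no reads in any library. The factor was 0.220 in ABE replicate 1 and 0.612 to 1.56 in the other 35 libraries, so that library stands apart. Human LMNA was not a row of the table. The mouse gene Lmna was at 7.47 to 11.8, 8.13 to 12.7 and 8.78 to 15.9 scaled TPM in the 3 groups. Marrow was not fully absent, since summed neutrophil markers had medians of 1590, 2694 and 1685 scaled TPM in the 3 groups. Summed skeletal muscle markers had medians of 1057, 2202 and 6484 scaled TPM, so muscle transcripts moved with the groups.

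Each V segment holds a conserved cysteine codon near its end, where the antigen-binding loop CDR3 begins, and reads were counted on the unrearranged gene. The last coding stretches below are shown because the results on V genes turn on these 4, with the cysteine codon in capitals (GENCODE transcripts on GRCm38, 5′ to 3′ on the gene strand). Ighv11-2 lies on the minus strand at chr12:114048241-114048311, Igkv14-126 on the plus strand at chr6:67896557-67896642, Igkv5-43 on the minus strand at chr6:69823355-69823440 and Ighv5-2 on the minus strand at chr12:113578504-113578574.
Ighv11-2: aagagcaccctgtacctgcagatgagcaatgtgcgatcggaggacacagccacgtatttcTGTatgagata
Igkv14-126: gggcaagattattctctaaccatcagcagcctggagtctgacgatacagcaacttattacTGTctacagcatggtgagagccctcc
Igkv5-43: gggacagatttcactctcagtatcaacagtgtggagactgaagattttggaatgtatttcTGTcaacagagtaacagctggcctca
Ighv5-2: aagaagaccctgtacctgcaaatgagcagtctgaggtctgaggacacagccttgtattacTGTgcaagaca
Both heavy V genes have few bases after the codon, because heavy chain CDR3 is mostly made by D and J segments, whereas the kappa V genes carry most of the light chain loop themselves. V genes resemble each other, and 136 of the 231 genes shared at least 1 stretch of 75 bases with another of the 231, so reads may have been split or dropped between near copies. This share was 39.0% of all such stretches for Igkv5-43 and 24.8% for Ighv11-2, and 0 for Igkv14-126, Igkc, Ighd and Ighg1.

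The first question was how antibody transcripts of LMNA G/G bone differ from wild-type bone. In saline-treated LMNA G/G mice the transcripts of IgG2b and of the kappa constant region were higher and those of IgD were lower than in wild-type mice, while IgM did not pass the test. By limma with Benjamini-Hochberg adjustment over all 13274 genes tested, 58.1% of all genes passed an adjusted p of 0.05 in this comparison (31.7% higher, 26.4% lower). Of the 159 immunoglobulin genes 21 passed (13.2%), 17 higher and 4 lower, a smaller share than among all genes. The balance depended on the scaling: 6 were higher and 6 lower on the TPM as deposited, 8 and 7 on TPM rescaled to their sum over genes past the length limit, and 13 and 6 after quantile normalization. Of the 11 constant-region genes 4 passed, 2 in each direction. The median standard error of the log2 fold change was 0.38 over these 159 genes.

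The second question was what the editor changed within LMNA G/G mice, and how the treated mice stood against wild-type mice. Against saline-treated mice, 20 of the 159 immunoglobulin genes were lower in ABE-treated mice and none was higher, where 56.9% of all genes passed (27.2% higher, 29.7% lower). The fall included 1 constant-region gene, Ighg2b, and 19 V genes. Against wild-type mice 11 of 159 passed, 2 higher and 9 lower (0 and 33 on the TPM as deposited), where 77.2% of all genes passed (39.5% higher, 37.6% lower). The 3 comparisons share libraries pairwise, so their counts are not independent of each other.

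IgM is the first class a B cell makes, and its constant-region gene Ighm (chr12:113418558-113422730) was at 48.1 to 253 scaled TPM in wild-type mice, with a median of 68.3. Saline-treated mice ranged from 29.2 to 144 around a median of 78.2, and ABE-treated mice from 27.9 to 150 around 67.7. The groups overlapped almost entirely, and 2 wild-type males held the highest values. The difference of saline-treated from wild-type mice was -0.17 on the log2 scale (SE 0.30, limma adjusted p = 0.641), with a 95% interval of -0.78 to 0.44. With the sexes fitted apart it was 0.43 in females and -0.78 in males, and the difference between the sexes did not pass (limma adjusted p = 0.181).

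IgD is made from the same primary transcript as IgM by alternative splicing and marks mature naive B cells. Its constant-region gene Ighd (chr12:113406604-113416324) was at 4.52 to 11 scaled TPM in wild-type mice (median 6.30). In saline-treated mice it was at 1.28 to 5.60 (median 1.67) and in ABE-treated mice at 1.12 to 2.77 (median 2.07). All 12 ABE-treated mice lay below the lowest wild-type mouse, as did 11 of 12 saline-treated mice, and the exception was a female. Between ABE-treated and wild-type mice 77.2% of all genes passed the test, and the share of all genes without overlap is not given here. The log2 fold change was -1.48 in saline-treated mice (SE 0.16, limma adjusted p = 5.1e-09) and -1.48 in ABE-treated mice (SE 0.16, limma adjusted p = 2.9e-09), both against wild-type. Between the LMNA G/G groups the difference did not pass (limma adjusted p = 0.991), with a 95% interval of -0.33 to 0.33.

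Set against IgM, with which it shares its primary transcript, IgD was also lower in both LMNA G/G groups. Ighd was 3.39 to 12.6% of Ighm in wild-type mice (median 8.42%), 1.54 to 5.68% in saline-treated mice (median 2.33%) and 1.58 to 6.56% in ABE-treated mice (median 3.08%), in scaled TPM. All 24 LMNA G/G mice lay below the wild-type median, and 9 saline-treated and 6 ABE-treated mice lay below the lowest wild-type mouse. Transcripts of B cell surface proteins moved the same way, and Fcer2a, the low-affinity IgE receptor CD23 of mature B cells, had medians of 1.45, 0.216 and 0.298 scaled TPM. The log2 fold change of Fcer2a was -1.41 in saline-treated mice (SE 0.12, limma adjusted p = 3.5e-11). Its means were 1.64, 0.301 and 0.310 scaled TPM, so it passed the filter of 0.5 only because of its wild-type level. It was not named by a rule set beforehand. Fewer cells of a type and less RNA per cell cannot be told apart in bulk tissue.

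**Figure D1:**
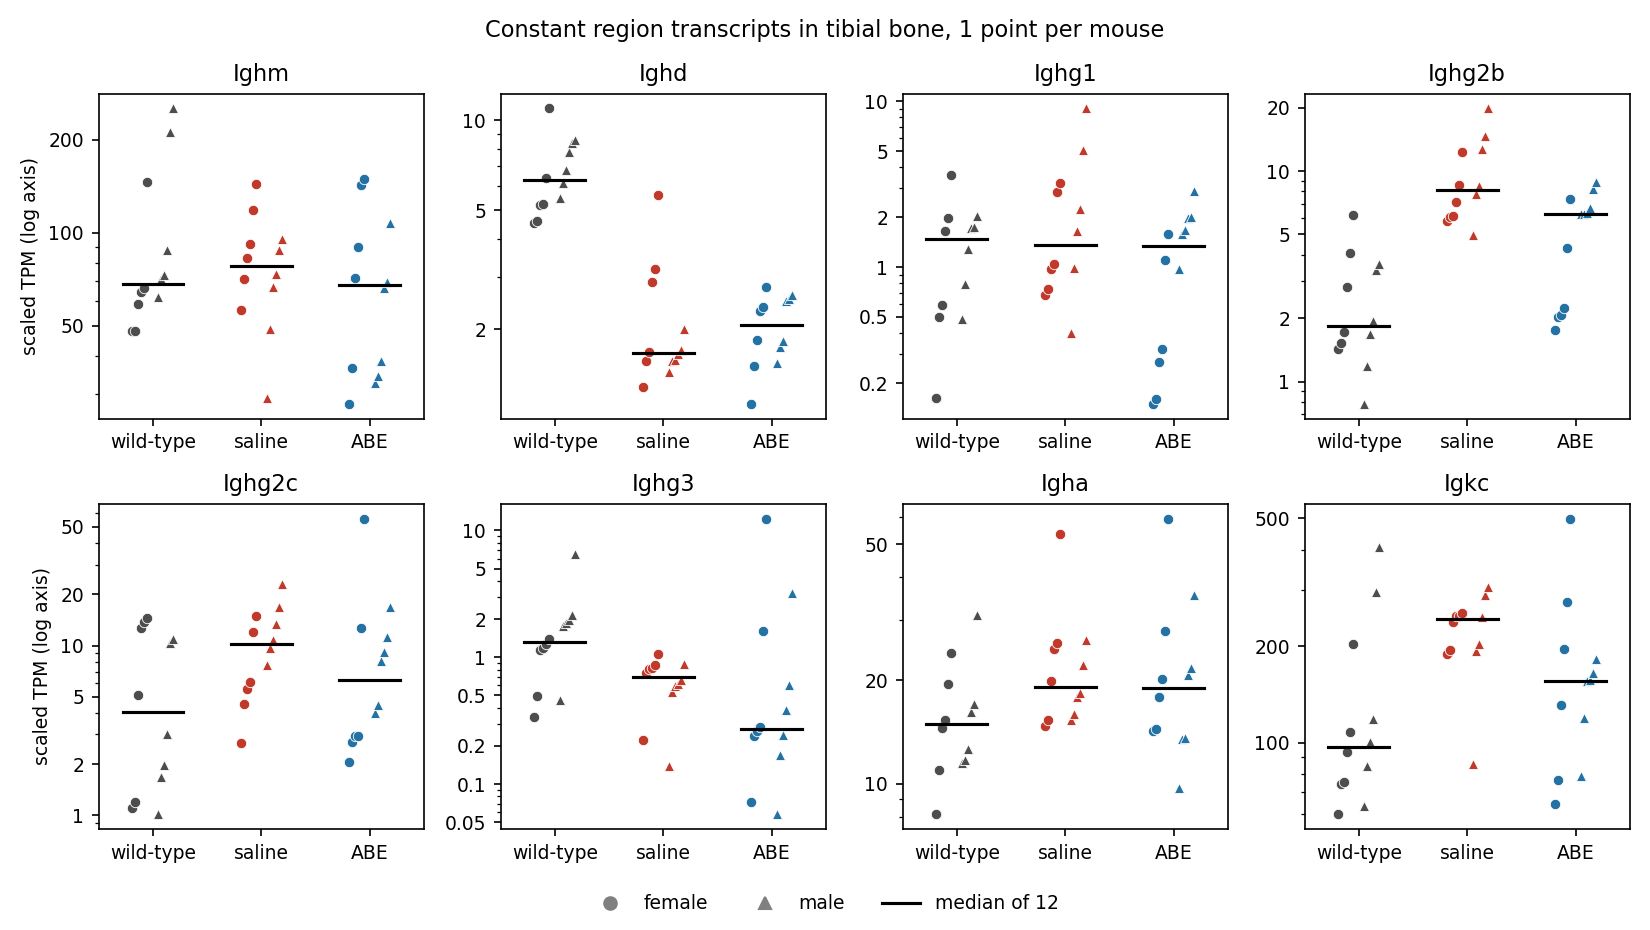
Scaled TPM (log axis) of 8 constant-region genes in each of the 36 mice, with circles for females, triangles for males and a bar at the median of 12. Ighd is lower in both LMNA G/G groups, Ighg2b is highest in saline-treated mice, and Ighm overlaps across the groups.

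IgG is the main class of serum antibody, and in mice of this strain it has the subclasses IgG1, IgG2b, IgG2c and IgG3. Ighg2b (chr12:113302965-113307933), whose product binds complement and activating Fc receptors, was at 0.782 to 6.21 scaled TPM in wild-type mice, with a median of 1.83. It was at 4.98 to 19.9 in saline-treated mice (median 8.15) and at 1.75 to 8.85 in ABE-treated mice (median 6.26). A single wild-type female, at 6.21, reached into the range of the saline-treated mice, and 4 ABE-treated females lay at 1.75 to 2.24, near the wild-type median. Ighg2b rose by 1.77 on the log2 scale in saline-treated mice (SE 0.26, limma adjusted p = 1.2e-06). It also rose by 0.89 in ABE-treated mice against wild-type (SE 0.26, limma adjusted p = 0.00286) and was lower by a log2 change of -0.88 in ABE-treated than in saline-treated mice (SE 0.26, limma adjusted p = 0.00646). The rise in ABE-treated mice was 0.13 in females and 1.66 in males, and the difference of 1.53 between the sexes did not pass (limma adjusted p = 0.0511).

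The near neighbour Ighg2c (chr12:113285325-113288932) encodes the subclass most tied to interferon and viral responses. It was at 1.01 to 14.5 scaled TPM in wild-type mice (median 4.06), 2.66 to 22.9 in saline-treated mice (median 10.2) and 2.07 to 56.0 in ABE-treated mice (median 6.29). The spread within each group was more than 5-fold, and the log2 fold change of 1.0 in saline-treated mice against wild-type did not pass (SE 0.47, limma adjusted p = 0.0687). Both subclasses can be told apart by their reads: the first coding exons of Ighg2b and Ighg2c hold 291 bases each and differ at 36 of them (87.6% identical). The first 150 bases are shown on the minus strand, at chr12:113307784-113307933 for Ighg2b and chr12:113288783-113288932 for Ighg2c, with the 15 differing bases in capitals.
Ighg2b: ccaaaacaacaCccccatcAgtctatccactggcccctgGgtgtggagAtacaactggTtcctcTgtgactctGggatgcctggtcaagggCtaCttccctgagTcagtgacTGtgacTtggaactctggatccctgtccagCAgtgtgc
Ighg2c: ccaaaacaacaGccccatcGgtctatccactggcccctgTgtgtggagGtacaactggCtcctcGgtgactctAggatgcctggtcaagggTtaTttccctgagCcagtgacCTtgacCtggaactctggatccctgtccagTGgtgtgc
Over the whole genes, 0.768% of the 75-base stretches of Ighg2b and 0.480% of those of Ighg2c occurred in another of the 231 genes.

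Ighg1 (chr12:113325240-113330523), typical of responses to protein antigens, had nearly equal medians of 1.47, 1.35 and 1.35 scaled TPM in the 3 groups, within ranges of 0.162 to 3.60, 0.398 to 9.05 and 0.149 to 2.86. Ighg3 (chr12:113356224-113361232), typical of responses to polysaccharides, had medians of 1.33, 0.705 and 0.273, and its highest value, 12.4, was in ABE replicate 2. Neither passed between saline-treated and wild-type mice, with log2 fold changes of 0.44 for Ighg1 (SE 0.33, limma adjusted p = 0.248) and -0.73 for Ighg3 (SE 0.38, limma adjusted p = 0.0974). Ighe, which encodes the IgE constant region, stayed at or below 0.032 scaled TPM in every library and was not tested.

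Summed over the 4 subclasses, IgG transcript was at 4.10 to 23.5 scaled TPM in wild-type mice (median 9.14), 11.9 to 52.7 in saline-treated mice (median 21.5) and 5.33 to 77.4 in ABE-treated mice (median 14.9). All 12 saline-treated mice lay above the wild-type median, and 6 lay above the highest wild-type mouse. By sex, male medians of this sum were 6.52, 24.7 and 18.5 in the 3 groups and female medians were 13.2, 14.7 and 5.67. The ratio of saline-treated to wild-type medians was 3.79 in males and 1.11 in females. For the single IgG genes the sex difference between saline-treated and wild-type mice did not pass (limma adjusted p = 0.243 for Ighg2b, 0.287 for Ighg2c, 0.342 for Ighg3 and 0.667 for Ighg1). These sums are descriptions and carry no test. IgG made up 5.18 to 7.61% of heavy constant-region TPM in wild-type males, 17.0 to 36.7% in saline-treated males and 11.9 to 32.9% in ABE-treated males, whose ranges do not reach the wild-type range. In females the ranges overlapped, at 5.19 to 20.4%, 8.18 to 25.3% and 4.87 to 26.8% in the 3 groups. Among mice of both sexes, 4 of 12 saline-treated and 4 of 12 ABE-treated mice lay above the highest wild-type mouse. A sex difference in this percentage was not tested. How often genes in general show no overlap between 6 males per group is not given here. Ighg2b itself was 10.03 to 37.0% of IgG transcript in wild-type mice, 29.8 to 58.3% in saline-treated mice and 9.57 to 50.1% in ABE-treated mice, with medians of 21.8%, 42.2% and 36.6%.

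IgA is the class of mucosal antibody, and IgA plasma cells also settle in marrow. Igha (chr12:113254830-113260236) was at 8.14 to 31.1 scaled TPM in wild-type mice (median 14.9), 14.7 to 53.3 in saline-treated mice (median 19.2) and 9.74 to 59.3 in ABE-treated mice (median 19.0). Of the saline-treated mice 11 lay above the wild-type median, but the groups overlapped and the log2 fold change of 0.46 did not pass (SE 0.23, limma adjusted p = 0.0839). By level, Ighm stood first among heavy constant regions in the median of every group, followed by Igha, and IgM made up a median of 71.3% of heavy constant-region TPM in wild-type mice, 65.4% in mice given saline and 64.1% in mice given ABE. These shares ranged over 50.0 to 85.2%, 46.6 to 78.0% and 38.9 to 76.5%.

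The light chains are taken in turn, kappa first. Igkc (chr6:70726435-70726966), the single kappa constant region, was at 59.7 to 407 scaled TPM in wild-type mice (median 96.8), 85.5 to 306 in saline-treated mice (median 243) and 64.5 to 500 in ABE-treated mice (median 156). All but 1 of the saline-treated mice lay above the wild-type median, although 2 wild-type males at 295 and 407 lay within or above their range. Igkc rose by 0.91 on the log2 scale in saline-treated mice (SE 0.30, limma adjusted p = 0.0108). It did not pass in ABE-treated mice against wild-type, at 0.38 (SE 0.30, limma adjusted p = 0.254), or against saline-treated mice, at -0.53 (SE 0.30, limma adjusted p = 0.129), and without ABE replicate 2 the latter became -0.70 (limma adjusted p = 0.0309). The rise in saline-treated mice depended on the scaling: it was 0.72 on the TPM as deposited (limma adjusted p = 0.108), 0.71 on TPM rescaled to their sum over genes past the length limit (limma adjusted p = 0.0518) and 0.31 after quantile normalization (limma adjusted p = 0.393).

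Lambda chains are used by few mouse B cells. Iglc3 (chr16:19065230-19065681) fell, from 3.37 to 11 scaled TPM in wild-type mice (median 5.69) to 1.89 to 10.04 in saline-treated (median 3.90) and 1.61 to 7.43 in ABE-treated mice (median 3.14). The groups overlapped, and the log2 fold changes against wild-type were -0.55 (SE 0.23, limma adjusted p = 0.0429) in saline-treated mice and -0.87 (SE 0.23, limma adjusted p = 0.00113) in ABE-treated mice. The former was lost in 13 of 36 fits that left out 1 library. Iglc1 (chr16:19061618-19062071) had medians of 8.69, 10.8 and 9.55 and Iglc2 (chr16:19198396-19200351) medians of 2.55, 2.97 and 2.37, and both overlapped across the groups. Their log2 fold changes in saline-treated mice were 0.19 (SE 0.28) and -0.01 (SE 0.21), and Iglc4 was at or below 0.492 scaled TPM and was not tested. The summed lambda constant regions had medians of 17.0, 18.0 and 15.2 scaled TPM in the 3 groups.

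V genes are short, so a read weighs much in their TPM, and their sums are given as scaled reads per 1000000 reads, called units here. Summed heavy V reads were 61.1 to 313 units in wild-type mice (median 93.7), 59.2 to 182 in saline-treated mice (median 145) and 42.1 to 316 in ABE-treated mice (median 101). Summed kappa V reads were 48.1 to 335 (median 87.8), 64.0 to 249 (median 177) and 48.6 to 382 (median 120), and summed lambda V reads had medians of 9.39, 11 and 8.39. In both the heavy and the kappa sum 11 of 12 saline-treated mice lay above the wild-type median, and none lay above the highest wild-type mouse. ABE replicate 1 was the lowest of its group in both sums and ABE replicate 2 the highest.

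Read against each other within a library, the 2 chains moved apart between the genotypes. There were 0.787 to 1.07 kappa V reads per heavy V read in wild-type mice (median 0.926), 1.08 to 1.49 in saline-treated mice (median 1.22) and 1.03 to 1.38 in ABE-treated mice (median 1.17). All 12 saline-treated mice and 11 of 12 ABE-treated mice lay above the highest wild-type mouse, in both sexes. Without the most read V gene of each locus the medians were 0.877, 1.27 and 1.16, and again 12 saline-treated and 11 ABE-treated mice lay above every wild-type mouse. The constant regions gave the same order, with 0.689 to 1.37 Igkc TPM per heavy constant-region TPM in wild-type mice (median 0.984), 1.37 to 2.13 in saline-treated mice (median 1.81) and 1.3 to 1.73 in ABE-treated mice (median 1.43). Here 12 saline-treated and 7 ABE-treated mice lay above the highest wild-type mouse. A ratio within a library does not depend on its scaling factor. Such ratios are scores over the genes chosen here and carry no test.

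**Figure D2:**
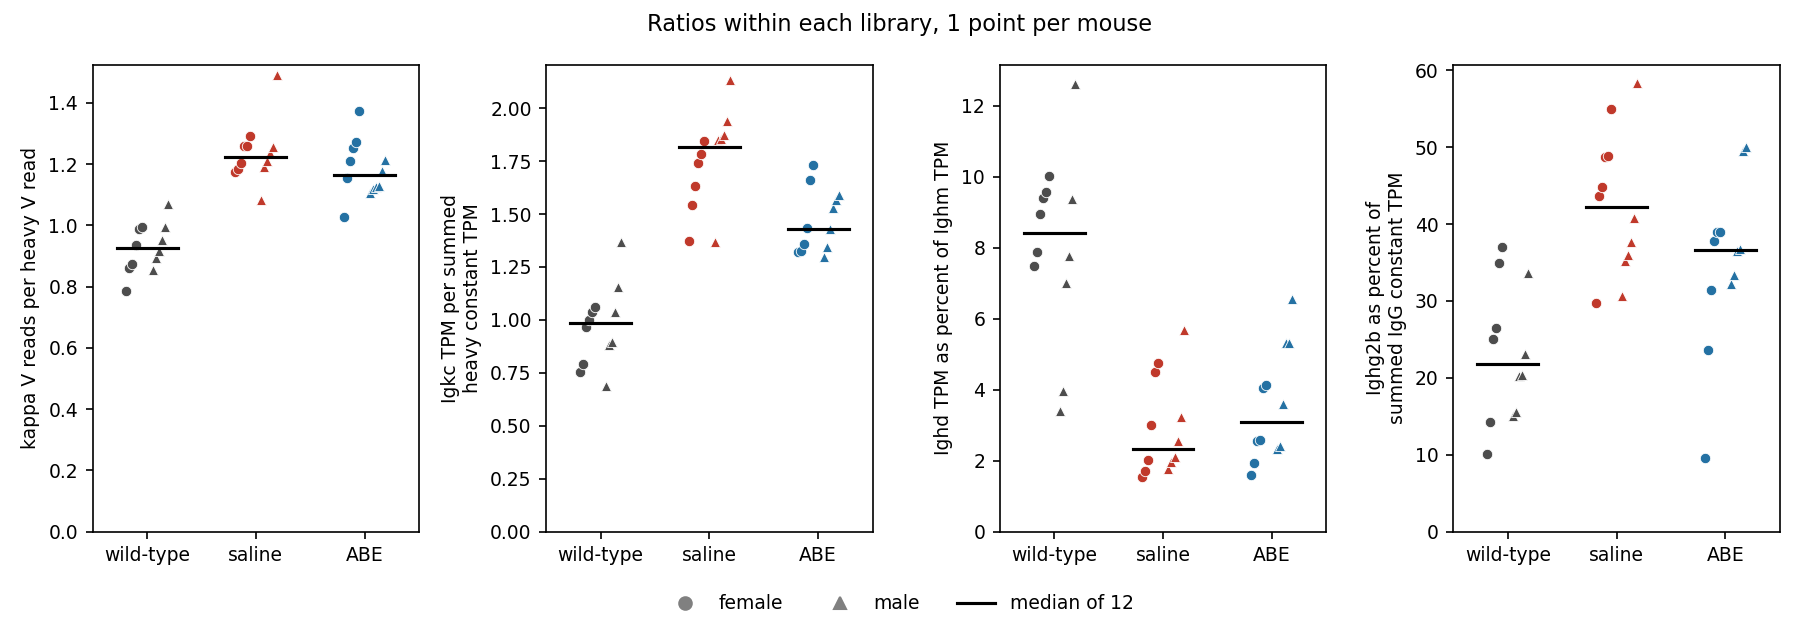
Ratios within each of the 36 libraries: kappa V reads per heavy V read, Igkc TPM per summed heavy constant-region TPM, Ighd as a percent of Ighm and Ighg2b as a percent of IgG TPM, with circles for females, triangles for males and a bar at the median of 12. The kappa per heavy ratios of saline-treated mice start at 1.08 and 1.37, at or above the highest wild-type values.

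Between saline-treated and wild-type mice 17 of 148 V genes passed, 15 higher and 2 lower, where 31.7% of all genes were higher and 26.4% lower. Of the 15, 11 were kappa V genes. Of the 69 kappa V genes tested 55 had a log2 fold change above 0, with a median of 0.43, and of the 76 heavy V genes 40 did, with a median of 0.08, where the median over all genes tested was 0.03. Igkv5-43 (chr6:69823355-69823943) changed most: it was at 0.789 to 10.6 scaled TPM in wild-type mice (median 1.78), 2.71 to 88.2 in saline-treated mice (median 12.9) and 1.08 to 30.5 in ABE-treated mice (median 9.01). Its log2 fold change was 1.99 in saline-treated (SE 0.50, limma adjusted p = 0.00109) and 1.42 in ABE-treated mice (SE 0.50, limma adjusted p = 0.0106), and the groups overlapped. It was the only V gene that rose in ABE-treated mice against wild-type.

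Other V genes that rose in saline-treated mice were Ighv1-12 at 1.34 on the log2 scale (SE 0.37, limma adjusted p = 0.00264), Igkv4-70 at 1.33 (SE 0.56, limma adjusted p = 0.041), Igkv6-15 at 1.28 (SE 0.36, limma adjusted p = 0.00312) and Igkv6-25 at 1.23 (SE 0.35, limma adjusted p = 0.00322). The call of Igkv4-70 was lost in 13 of 36 fits without 1 library (adjusted p up to 0.0854). Ighv5-2, which lies nearest to the constant regions of the 113 heavy V genes and is joined often in early B cell precursors, fell from 0.535 to 1.63 scaled TPM in wild-type mice (median 0.878) to 0.154 to 0.653 in saline-treated (median 0.340) and 0.143 to 0.877 in ABE-treated mice (median 0.339). Its log2 fold changes were -0.59 in both (SE 0.12, limma adjusted p = 0.000129 and 6.2e-05). Both LMNA G/G medians lay below the filter of 0.5 scaled TPM, so Ighv5-2 was tested only because of its wild-type level. Iglv3, a lambda V gene, fell by 0.61 on the log2 scale in saline-treated mice (SE 0.21, limma adjusted p = 0.013). Of the 3 lambda V genes tested, 2 had a log2 fold change above 0, with a median of 0.45 over the 3. Ighv5-2 stands 155.8 kb from Ighm. Among transcripts of precursors, Dntt, the polymerase that adds bases at V joins in precursors, had a log2 fold change of -0.63 in saline-treated mice (SE 0.14, limma adjusted p = 0.000329). Dntt was chosen after its value was seen. Of 8 precursor genes tested 3 were lower, where 26.4% of all genes were. Vpreb1, Vpreb3, Il7r, Cd93 and Sox4 did not pass, at -0.11, -0.32, -0.28, -0.09 and -0.17 (limma adjusted p = 0.614, 0.178, 0.116, 0.272 and 0.123).

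**Figure D3:**
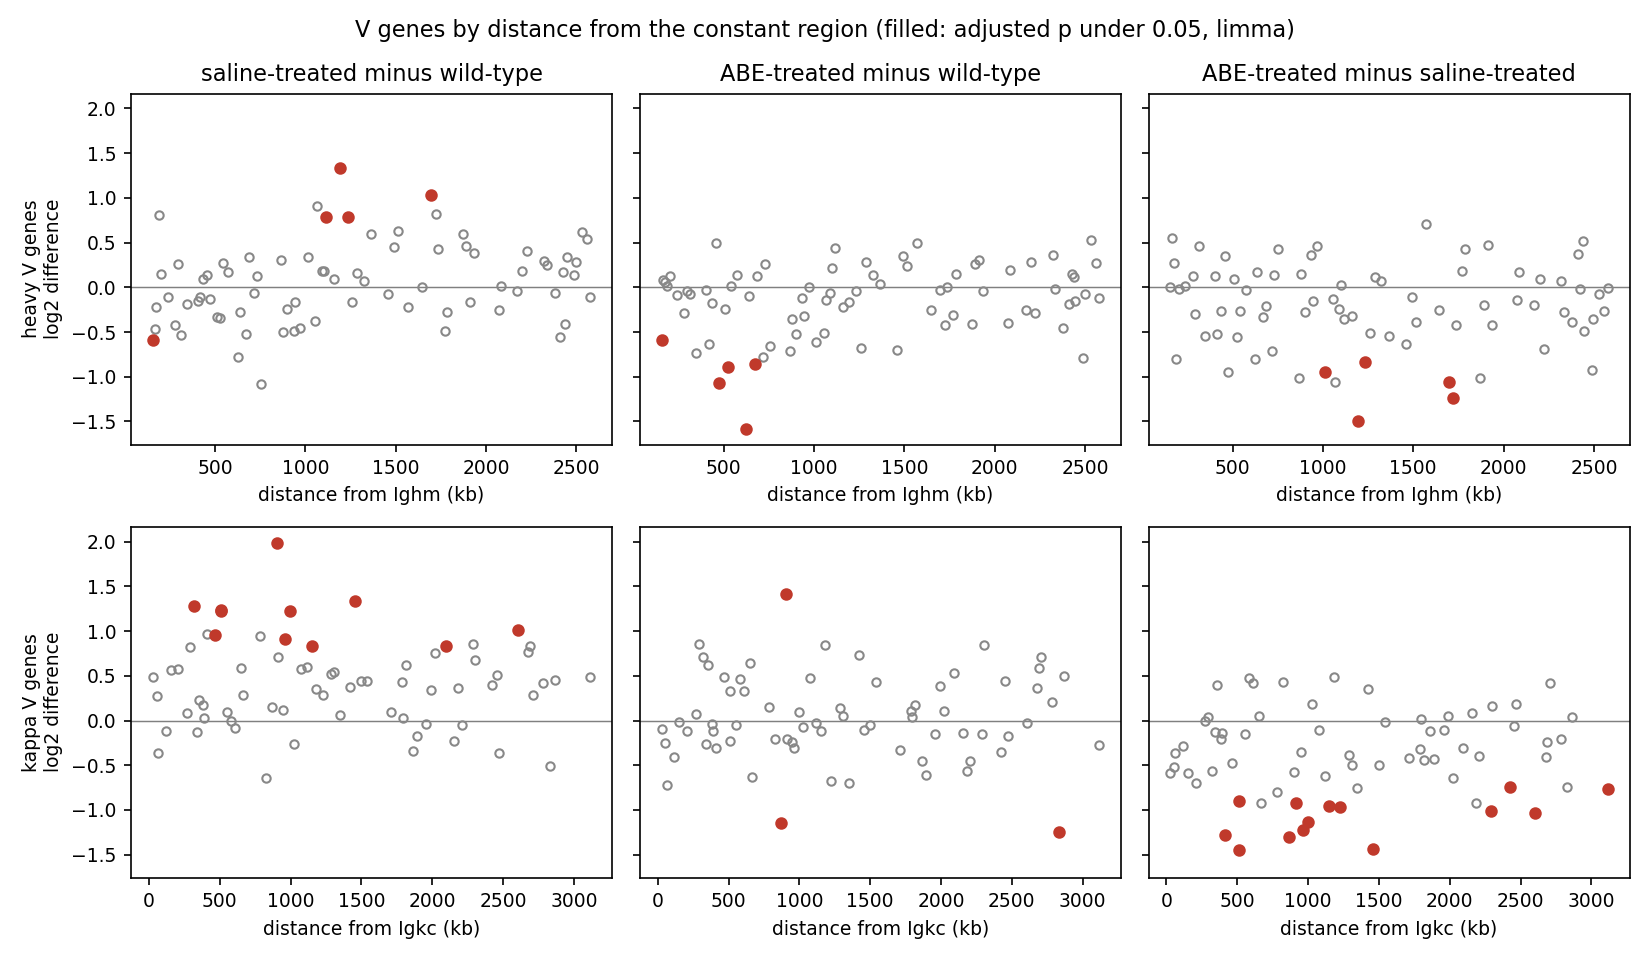
Log2 fold change of each tested V gene against its distance in kb from Ighm (heavy, 76 genes) or Igkc (kappa, 69 genes) in the 3 comparisons, with filled points for adjusted p under 0.05. Kappa V genes lie mostly above 0 in saline-treated against wild-type mice, 55 of 69, and mostly below 0 in ABE-treated against saline-treated mice, where 16 of 69 lie above.

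Position along the locus was compared because heavy V genes far from the constant region tend to join later than near ones. Kappa V genes were described in the same way. Heavy V genes lie 155.8 to 2577.3 kb from Ighm and kappa V genes 22.3 to 3170.2 kb from Igkc. In saline-treated against wild-type mice the 38 heavy V genes nearer to Ighm had a median log2 fold change of -0.14 and the 38 farther ones 0.18, and the nearer and farther kappa V genes had medians of 0.49 and 0.42. These medians are descriptions.

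Between ABE-treated and saline-treated mice 14 of 69 kappa and 5 of 76 heavy V genes fell, where 29.7% of all genes did. The falls with the largest log2 fold changes were in Ighv1-12 at -1.50 (SE 0.37, limma adjusted p = 0.00176), Igkv8-24 at -1.45 (SE 0.42, limma adjusted p = 0.00484), Igkv4-70 at -1.44 (SE 0.56, limma adjusted p = 0.0291), Igkv12-41 at -1.3 (SE 0.51, limma adjusted p = 0.0313) and Igkv8-21 at -1.27 (SE 0.54, limma adjusted p = 0.0418). The medians of Ighv1-12 were 0.900 scaled TPM, 4.50 and 0.688 in the 3 groups, within ranges of 0.222 to 4.28, 0.148 to 9.80 and 0.190 to 6.63. Without 1 library the call was lost in 13 of 36 fits for Igkv8-21, in 6 of 36 for Igkv4-70 and in 6 of 36 for Igkv12-41. The highest value of Igkv8-21 was that of saline replicate 8, at 95.2 scaled TPM, and without this mouse its log2 fold change was -0.84 (limma adjusted p = 0.0932).

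Between ABE-treated and wild-type mice 8 of 148 V genes passed, 1 higher and 7 lower, where 39.5% of all genes were higher and 37.6% lower. The falls were led by Ighv11-2 (chr12:114048241-114048812), at -1.58 on the log2 scale (SE 0.50, limma adjusted p = 0.00515), and Igkv14-126 (chr6:67896172-67896642), at -1.24 (SE 0.57, limma adjusted p = 0.0488), followed by Igkv12-41 at -1.15 (SE 0.51, limma adjusted p = 0.0426), Ighv7-1 at -1.07 (SE 0.49, limma adjusted p = 0.046) and Ighv4-1 at -0.90 (SE 0.33, limma adjusted p = 0.0138). Without 1 library the call was lost in 24 of 36 fits for Igkv14-126, in 12 of 36 for Ighv7-1 and in 9 of 36 for Igkv12-41. Ighv11-2 was at 1.51 to 24.4 scaled TPM in wild-type mice (median 4.70), 0.582 to 19.1 in saline-treated mice (median 2.61) and 0.0182 to 39.4 in ABE-treated mice (median 1.36), so the ABE-treated group held both the lowest and the highest mouse.

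Ighv11-2 and Igkv14-126 are known as the heavy and kappa V genes of a germline antibody to phosphatidylcholine made by B-1 cells, a long-lived B cell type, and they were set against each other after their values had been seen. The values below describe the pair and carry no test. As a share of the V reads of their loci on a log2 scale, Pearson's r was 0.91, 0.96 and 0.97 and Spearman's rho 0.76, 0.94 and 0.94 in the 3 groups of 12 mice, so mice high in one were high in the other. Without the 2 mice farthest from the median share of Ighv11-2, r was 0.64, 0.89 and 0.92. Of the 69 kappa V genes tested, Igkv14-126 had the highest rho with Ighv11-2 in each group, ahead of Igkv9-120 at 0.62 in wild-type mice, Igkv8-21 at 0.58 in those given saline and Igkv12-89 at 0.74 in those given ABE. The pair shares no stretch of 75 bases. At the extremes, ABE replicate 3 held 17.4% of its heavy V reads on Ighv11-2 and 15.0% of its kappa V reads on Igkv14-126, wild-type replicate 12 held 14.5% and 14.6%, and ABE replicate 9 held 0.0143% and 0.0380%.

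**Figure D4:**
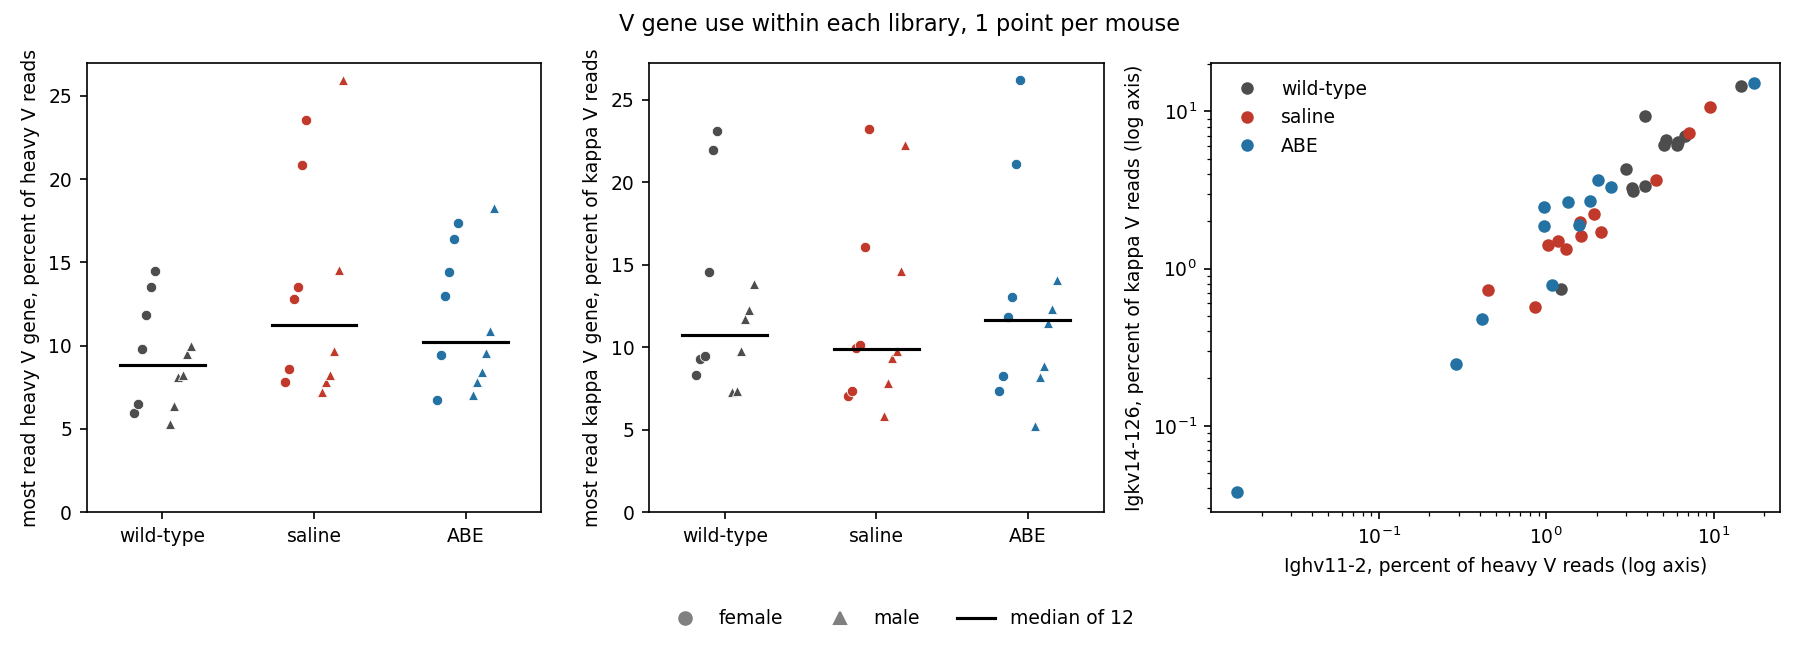
Share of V reads held by the most read heavy and kappa V gene in each of the 36 mice (percent of the V reads of the locus, bar at the median of 12), and the share of Ighv11-2 against that of Igkv14-126 on log axes. The most read heavy V gene holds up to 25.9% and the most read kappa V gene up to 26.2%, and the pair lies along a line in all 3 groups.

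Use of V genes was uneven in every mouse. Over all libraries the most read heavy V genes were Ighv1-9, Ighv3-6, Ighv1-26, Ighv9-3 and Ighv1-80, and the most read kappa V genes were Igkv1-117, Igkv5-39, Igkv5-43, Igkv9-120 and Igkv14-126. The most read heavy V gene of a mouse held 5.33 to 14.5% of heavy V reads in wild-type mice, 7.22 to 25.9% in mice given saline and 6.74 to 18.3% in mice given ABE, with medians of 8.85%, 11.2% and 10.2%. For kappa the ranges were 7.30 to 23.1%, 5.84 to 23.2% and 5.24 to 26.2%. A single V gene passed 20% of its heavy locus in 3 mice, all saline-treated: Ighv8-8 at 25.9% in replicate 9, Ighv7-3 at 23.6% in replicate 3 and Ighv10-3 at 20.9% in replicate 6. For kappa it did so in 6 mice, with Igkv1-117 at 22.0% in wild-type replicate 3, Igkv5-39 at 23.1% in wild-type replicate 6, Igkv5-43 at 23.2% in saline replicate 3, Igkv8-21 at 22.2% in saline replicate 8, Igkv9-120 at 26.2% in ABE replicate 2 and Igkv8-30 at 21.1% in ABE replicate 3. The gene in front therefore differed from mouse to mouse.

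Fewer V genes were seen in LMNA G/G mice at equal depth. After each library was thinned to 2214 heavy V reads, the lowest number in any library, 88.7 to 98.5 heavy V genes had a read in wild-type mice (median 94.0), 78.2 to 89.9 in saline-treated mice (median 85.8) and 80.0 to 91.8 in ABE-treated mice (median 88.5). Of the saline-treated mice 11 lay below the lowest wild-type mouse, and of the ABE-treated mice 6 did. Unthinned, the medians were 101.5, 98.0 and 96.5 genes. Among kappa V genes thinned to 2453 reads the medians were 87.8, 79.0 and 80.7, and unthinned 94.5, 92.0 and 92.5. The inverse Simpson number, the number of equally used genes that would give the same evenness, overlapped across the groups, with medians of 30.9, 26.6 and 27.7 for heavy V genes and 25.0, 27.6 and 23.6 for kappa V genes. These counts are descriptions over the genes chosen here and carry no test. Reads are not cells, and a plasma cell clone can give many reads to 1 V gene.

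Jchain encodes the chain that joins IgM and IgA into polymers and is made in antibody-secreting cells, whereas Cd79b is part of the antigen receptor complex on B cells. Jchain had medians of 4.83, 7.50 and 5.27 scaled TPM in the 3 groups and did not pass in saline-treated mice against wild-type, at 0.27 on the log2 scale (SE 0.25, limma adjusted p = 0.374). Cd79b had medians of 10.3, 5.40 and 6.54 and a log2 fold change of -0.83 (SE 0.19, limma adjusted p = 0.000435). Each was set against Ighm, Igha, Ighg1, Ighg2b, Ighg2c and Igkc within each group of 12 mice, 36 relations in all, with permutation p-values adjusted over them.

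Igkc followed Jchain from mouse to mouse in the wild-type and ABE-treated groups. Pearson's r was 0.96 in wild-type mice (permutation p = 3e-05, adjusted 0.0009) with Spearman's rho of 0.98 (permutation p = 1e-05, the smallest that 100000 resamples can give, adjusted 0.00036), and 0.92 in ABE-treated mice (permutation p = 5e-05, adjusted 0.0009) with rho of 0.88 (permutation p = 0.00032, adjusted 0.0036). Without the 2 mice farthest from the median of Jchain, r was 0.95 and 0.86. In saline-treated mice r was 0.69 (permutation p = 0.0216, adjusted 0.0862), rho was 0.52 (permutation p = 0.09, adjusted 0.216), and r was 0.0059 without the 2 farthest mice. Ighm gave an r with Jchain of 0.88, 0.82 and 0.83 in the 3 groups (permutation p = 0.00053, 0.00128 and 0.0009, adjusted 0.00618, 0.00658 and 0.00618). The rho values were 0.74, 0.71 and 0.84 (permutation p = 0.00788, 0.0114 and 0.00126, adjusted 0.0473, 0.0585 and 0.00907), and r without the 2 farthest mice was 0.64, 0.50 and 0.78. The difference between groups in these relations was not tested.

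Cd79b passed with Ighm (r = 0.84, rho = 0.87, permutation p = 0.00071 and 0.0004, adjusted 0.00618 and 0.0036) and with Igkc (r = 0.81, rho = 0.93, permutation p = 0.00162 and 7e-05, adjusted 0.00729 and 0.00126) in ABE-treated mice, and r without the 2 farthest mice was 0.76 and 0.77. Igha passed with Jchain by r in ABE-treated mice (r = 0.82, permutation p = 0.00103, adjusted 0.00618) but not by rho (0.66, permutation p = 0.0217, adjusted 0.087), and r without the 2 farthest mice was 0.54. Of Ighg1, Ighg2b and Ighg2c, none passed with Jchain or Cd79b in any group after adjustment, the lowest adjusted p being 0.11.

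The genes that make, place or read antibodies were taken as lists. Of 15 B cell genes tested, 15 were lower in mice given saline and 14 in mice given ABE than in wild-type mice, and between the LMNA G/G groups their median log2 fold change was 0.13. Of 8 genes of pro-B and pre-B cells, 3 were lower in mice given saline and 4 in mice given ABE than in wild-type mice, and 3 were lower in ABE-treated than in saline-treated mice. Of all genes, 26.4% were lower in mice given saline and 37.6% in mice given ABE than in wild-type mice. In ABE-treated against saline-treated mice 29.7% of all genes were lower. The median log2 fold change in saline-treated mice was -0.87 over the B cell genes and -0.30 over the precursor genes, where it was 0.03 over all genes tested.

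Plasma cell genes were mixed. Of 11 tested, 4 rose in saline-treated mice (Sdc1, Prdm1, Fkbp11 and Ell2) and 4 fell (Irf4, Slamf7, Tnfrsf13b and Pou2af1). Of all genes, 31.7% were higher and 26.4% lower in saline-treated than in wild-type mice. Sdc1 encodes syndecan-1 and Prdm1 the regulator Blimp-1, which are not particular to plasma cells. Sdc1 had medians of 2.72, 3.85 and 2.93 scaled TPM, a log2 fold change of 0.41 in saline-treated mice (SE 0.12, limma adjusted p = 0.00529) and one of -0.34 in ABE-treated against saline-treated mice (SE 0.12, limma adjusted p = 0.0187). In saline-treated mice the other rises were 0.51 for Ell2, 0.31 for Fkbp11 and 0.19 for Prdm1. The falls were -0.71 for Tnfrsf13b, -0.65 for Irf4, -0.61 for Pou2af1 and -0.55 for Slamf7. Xbp1, the most abundant of the list, did not pass, at -0.03 (SE 0.04, limma adjusted p = 0.548). In ABE-treated mice 2 rose and 4 fell against wild-type, where 39.5% of all genes were higher and 37.6% lower. Sdc1 and Prdm1 fell in ABE-treated against saline-treated mice, where 29.7% of all genes did. Mzb1, Tnfrsf17 and Derl3, which define plasma cells most closely, were below the filter. Among 4 genes of class switching and germinal centres 1 rose and 2 fell in saline-treated mice.

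Of 7 genes for antibody receptors and transport, Fcgr3 and Fcgr4 rose in saline-treated mice and Trim21, a cytosolic antibody receptor, fell. Of all genes, 31.7% were higher and 26.4% lower in saline-treated than in wild-type mice. In ABE-treated mice 4 fell against wild-type and 5 against saline-treated mice, where 37.6% and 29.7% of all genes fell. Fcgr4, an activating receptor for IgG2, had medians of 1.08, 1.93 and 1.26 scaled TPM, a log2 fold change of 0.49 in saline-treated mice (SE 0.17, limma adjusted p = 0.0139) and one of -0.56 in ABE-treated against saline-treated mice (SE 0.17, limma adjusted p = 0.00625). Fcer1g, the most abundant of the list, Fcgrt, Fcgr1 and Fcgr2b did not pass in saline-treated against wild-type mice. Their log2 fold changes were 0.087, 0.064, 0.055 and -0.11 (limma adjusted p = 0.632, 0.555, 0.613 and 0.387). Of 4 genes for plasma cell niche and survival, Vcam1 rose in saline-treated mice, 2 fell in ABE-treated mice against wild-type and all 4 fell against saline-treated mice, Cxcl12 among them, with medians of 36 scaled TPM in wild-type and 47.6 in saline-treated mice. Fc receptors and Vcam1 are also expressed by myeloid and stromal cells.

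Markers of other cells also differed between the groups, and their counts are read against the shares of all genes. Between saline-treated and wild-type mice 31.7% of all genes were higher and 26.4% lower, between ABE-treated and wild-type mice 39.5% and 37.6%, and in ABE-treated against saline-treated mice 27.2% and 29.7%. Of 12 neutrophil markers 4 were higher in saline-treated than in wild-type mice and 11 were lower in ABE-treated than in saline-treated mice, with summed levels of 803 to 2628, 1073 to 3871 and 371 to 4165 scaled TPM in the 3 groups. Of 8 erythroid markers tested 1 was lower in saline-treated mice than in wild-type, and in ABE-treated mice 8 were lower than in wild-type and 7 lower than in saline-treated mice. Of 12 skeletal muscle markers 10 were higher in mice given saline and 12 in mice given ABE than in wild-type mice, and 11 were higher in ABE-treated than in saline-treated mice, with summed levels of 215 to 3177, 334 to 7943 and 1140 to 13463. Of 10 osteocyte and osteoblast markers 6 rose in mice given saline and 7 in mice given ABE against wild-type mice, and between the LMNA G/G groups 1 rose and 2 fell. Of 3 T cell markers tested 2 were lower in mice given saline and 3 in mice given ABE than in wild-type mice, and 2 were lower in ABE-treated than in saline-treated mice. No gene of these lists was at 0 in every library. Their part in the immunoglobulin results was not tested.

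Effects by sex were tested as interaction terms. Between saline-treated and wild-type mice the effect differed between the sexes in 2.93% of all genes and in none of the 159 immunoglobulin genes by limma, with 11 at an unadjusted p under 0.05 and none by limma-voom on the reads recovered from the TPM. Between ABE-treated and wild-type mice it differed in 5.36% of all genes and in 2 of 159, the heavy V gene Ighv9-3 and the kappa V gene Igkv1-135, both lower in males. Between ABE-treated and saline-treated mice it differed in 0.0452% of all genes and in none of 159 by limma, with 8 at an unadjusted p under 0.05 and none by limma-voom.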

How the data were processed

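The authors deposited 1 table of TPM values for 36 libraries. Per the labels and the methods, poly(A) RNA was made into stranded libraries, read in pairs on a NovaSeq, aligned to GRCm38 with STAR (2.73a in the submitters' processing notes) and counted on GENCODE genes with QoRTs; how the deposited TPM were computed is not given in the sources used here. Each value was a whole number of reads divided by the gene length less a fixed number of bases and multiplied by 1 constant per library (100% of values whole, tolerance 0.01), so the reads were recovered from it. Genes no more than 1 base longer than that number held 84.7 to 96.6% of the deposited TPM of a library, so TPM were divided by a median ratio factor computed on 22771 genes, which gives the scaled TPM. Scaled TPM + 0.5 were put on the log2 scale and fitted with limma 3.58.1 in R 4.3.3 over all 36 libraries with sex as covariate, for the 13274 genes past that length with a mean of at least 0.5 scaled TPM, with Benjamini-Hochberg adjustment and a threshold of 0.05; fold changes on this scale understate the change of low genes. V reads were summed as reads per 1000000 reads on genes past that length, divided by a median ratio factor of their own. No count test was used as the main one, and limma-voom on the recovered reads was an alternative.

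The genes and gene lists were chosen with earlier results of these data known. Every constant-region gene is named, with the 5 V genes of most reads per locus, the 5 largest rises and falls past the threshold in each comparison, and any V gene with at least 20% of the V reads of its locus in a library. Dntt and the pair of Ighv11-2 with Igkv14-126 were chosen after their values were seen. Of the listed genes, Jchain, Cd79b and the most abundant gene of each list were to be named. Fcer2a, Sdc1 and Fcgr4 were given with their values outside these rules. Each library is a separate mouse, and which mice shared a litter is not given in the sources used here. The limma p-values set a group difference against the spread between these mice, which were treated as independent. Permutation tests used 100000 resamples and are two-sided. Counts and read shares carry counting error beside the spread between mice. The scripts were tested on simulated data. Of related annotations, 4 genes typed IG_LV, 33 D and J genes and 158 V pseudogenes were not among the genes described. Sequences are from GENCODE transcripts on GRCm38, and promoters and proteins were not analysed here. Reads of rearranged and mutated V segments were aligned to the unrearranged genome, which could lower the counts of mutated V genes. Alternatives were other pseudocounts, filters, scalings and tests, each sex alone, and each library left out. Python 3.11.15 with pandas 2.3.3, numpy 2.4.6, scipy 1.17.1 and matplotlib 3.10.9 was used for the rest.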

Additional observations from a re-analysis of the deposited data

Results flagged for a closer look

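The effect of ABE treatment against wild-type differed between the sexes in 2 immunoglobulin genes by the interaction term of limma, both V genes. For Ighv9-3, a heavy V gene, the log2 fold change was 0.56 in females and -2.13 in males, a male minus female difference of -2.69 (SE 0.69, limma adjusted p = 0.0238). For Igkv1-135, a kappa V gene, it was 0.49 in females and -1.04 in males, a difference of -1.53 (SE 0.45, limma adjusted p = 0.0406). Across the libraries of both sexes Ighv9-3 had medians of 7.87, 11.5 and 6.31 scaled TPM in wild-type mice, mice given saline and mice given ABE, and Igkv1-135 medians of 4.84, 5.19 and 3.16. The number of such genes ranged from 0 to 4 when 1 library was left out, and it was 0 without ABE replicate 8.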

How the results depend on the processing

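These held under every alternative that tested them (Ighd lay below the filter at 5 scaled TPM): the fall of Ighd in both LMNA G/G groups and the rise of Ighg2b in saline-treated against wild-type mice. In fits without 1 library the log2 fold change of Ighd was -1.60 to -1.41 and that of Ighg2b 1.65 to 1.91 in saline-treated mice. The rise of Ighg2b in ABE-treated mice was not called on the TPM as deposited (0.46, limma adjusted p = 0.157) or in females alone (0.13, limma adjusted p = 0.759), and its fall against saline-treated mice was not called in males alone (-0.53, limma adjusted p = 0.195). The TPM as deposited moved the median log2 fold change of all genes to -0.12 and -0.40 in saline-treated and ABE-treated mice against wild-type and to -0.26 between the LMNA G/G groups, and rescaling to genes past the length limit moved the first 2 to -0.12 and -0.16. The cause of the changes below was not tested.

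Of immunoglobulin genes, 21 passed between saline-treated and wild-type mice, against 9 with a filter at 5 scaled TPM (where fewer genes were tested), 12 on the TPM as deposited, 11 in females only and 40 with array weights, and 15 (without saline replicate 6) to 26 (without saline replicate 3) without 1 library. Between ABE-treated and wild-type mice 11 passed, against 4 with the filter at 5, 33 on the TPM as deposited, 3 in females only and 25 in males only, and 9 to 13 without 1 library. Between ABE-treated and saline-treated mice 20 passed, against 13 with no filter, 7 with the filter at 5, 7 in females only and 7 in males only, and 14 (without saline replicate 5) to 27 (without saline replicate 11) without 1 library. A sex difference between saline-treated and wild-type mice passed in 0 genes, against 1 after quantile normalization and 2 with array weights or the compared groups only, and 0 to 1 without 1 library. Between ABE-treated and wild-type mice it passed in 2 genes, against 1 with no filter, the filter at 5, the TPM as deposited, rescaled TPM, genes of every length, limma-voom or the compared groups only, and 0 to 4 without 1 library. Between ABE-treated and saline-treated mice it passed in 0, and 0 to 1 without 1 library (1 without ABE replicate 7).

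Changes of sign came in values that had not passed. Ighd between the LMNA G/G groups was 0.0055 with a pseudocount of 0.1, 0.0059 by limma-voom, 0.27 in males only and 0.076 with array weights, and -0.049 to 0.12 without 1 library. Ighm in saline-treated mice against wild-type was 0.43 in females only. Igkc in ABE-treated mice against wild-type was -0.19 on the TPM as deposited, -0.091 after quantile normalization and -0.020 in males only. Iglc1 in saline-treated mice was -0.0024 on rescaled TPM and -0.21 in males only. Iglc2 was 0.016 by limma-voom, 0.15 in males only and 0.12 with array weights, and -0.075 to 0.083 without 1 library. Jchain was -0.34 in males only.

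Differences of medians in the number of V genes with a read moved with thinning to one depth, to -8.28 heavy and -8.76 kappa V genes in saline-treated against wild-type mice, 2.72 heavy V genes between the LMNA G/G groups and -7.08 kappa V genes in mice given ABE against wild-type. The difference in kappa V reads per heavy V read was 0.30 in mice given saline and 0.24 in mice given ABE against wild-type and -0.058 between the LMNA G/G groups. Without the most read gene of each locus, an alternative chosen after seeing the data, it was 0.39 in saline-treated against wild-type mice. With constant regions in place of V genes, also chosen after seeing the data, it was 0.83, 0.45 and -0.38. No paired analysis was possible because replicate numbers of the groups do not mark shared animals or litters.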

Other observations

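The share of lambda among light chain V reads was 4.23 to 12.3% in wild-type mice (median 8.36%), 4.29 to 9.78% in saline-treated mice (median 6.08%) and 5.51 to 11.3% in ABE-treated mice (median 7.94%), and 11 of 12 saline-treated mice lay at or below the wild-type median. Within lambda, Iglv1 held most reads, with medians of 61.8%, 68.8% and 69.4% of lambda V reads in the 3 groups. In saline-treated females Iglv1 held 68.6 to 85.8% and in saline-treated males 59.2 to 69.0%. These shares are descriptions and carry no test.

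ABE replicate 2 had the highest share of reads on immunoglobulin genes of any library, 0.356%, with 59.3 scaled TPM of Igha, 56.0 of Ighg2c and 500 of Igkc, and a single kappa V gene, Igkv9-120, held 26.2% of its kappa V reads. ABE replicate 1 had the lowest share, 0.0326%. Wild-type replicate 10 had 0.325%, with 253 scaled TPM of Ighm, while its Ighd was 3.39% of Ighm, the lowest of the wild-type mice.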
